A study of Mus musculus with 6 samples.

Results

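LFA-1 is the main integrin of lymphocytes, and 10 genes around it are described here: its chains Itgal and Itgb2, the activators Fermt3, Tln1, Rap1a, Rap1b and Rassf5, the ligands Icam1 and Icam2, and Jaml, an adhesion receptor of the immunoglobulin family on leukocytes. They were chosen by name and function from earlier results of the same arrays, among them the difference between the lines, so their values on these arrays are given as a description. All 10 were on the array, with 18 probes, and all 10 were among the 21341 genes that could be compared. For 9 of them the probe that stands for the gene was well above background on all 6 arrays, and for Icam1 the call came from a majority of its repeated spots.

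The arrays compare 2 lines of S49, a mouse T lymphoma that grows in suspension: Neo, the parent, and MR 4-25, which the labels call mannitol recovered. Mannitol is a sugar alcohol added to medium to raise its osmolarity. Cells of each line were grown in the same medium and left untreated, and total RNA of 3 samples per line was hybridised to Agilent single-colour (Cy3) arrays, 1 array per sample. Each group is 1 line, so an effect of the recovery cannot be told apart from other ways in which the lines differ. The labels do not tell if the replicates were separate cultures, and the errors and p-values therefore cover the spread of these samples only, which may be technical.

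An integrin is a pair of an alpha and a beta chain that spans the membrane. On a resting lymphocyte LFA-1 is bent and binds its ligands, the ICAMs, weakly. Signals from the T cell receptor or from chemokine receptors load the small GTPase Rap1 with GTP, Rap1 and its partners bring talin to the tail of the beta chain, kindlin-3 binds the same tail beside it, and the integrin straightens and holds its ligand. In T cells this step is known for arrest on vessel walls and for contact with antigen-presenting cells, and people or mice without the beta chain or without kindlin-3 have a leukocyte adhesion deficiency.

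The 3 genes with the clearest difference between the lines were each read by probes of 60 bases, shown here because their signals carry the result. Capitals mark the letters AATAAA, the usual polyadenylation signal, where a probe holds them. For Itgal the first 30 bases of each of its probes are given.
Itgal, brightest probe (A_52_P424970): ctctctggaatcatacgcccaAATAAActt
Itgal, other probe (A_51_P466378): acttgagagccctggctctgaccagcttca
Fermt3 (A_52_P38639): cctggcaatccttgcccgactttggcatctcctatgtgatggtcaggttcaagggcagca
Jaml (A_52_P375312): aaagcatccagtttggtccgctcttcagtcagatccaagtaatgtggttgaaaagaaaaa
On build mm7 of the mouse genome, as the array's annotation gives it, the brightest Itgal probe lay on the plus strand at chr7:123431402-123431461 and the other at chr7:123430204-123430263, 1198 bases before it. The Fermt3 probe lay on the minus strand at chr19:6819631-6821666, which spans 2036 bases of genome for 60 bases of probe, so it crosses a splice junction. The Jaml probe lay on the plus strand at chr9:45041748-45041807. AATAAA was found in 2 of the 18 probes, the brightest of Itgal and 1 of Icam1, and its reverse complement TTTATT in 0 of 18. Of all 41174 gene probes on the array, 4.78% hold AATAAA and 4.25% hold TTTATT. A match is a description of the probe's letters.

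Of the 10 genes, 3 were lower in MR 4-25 with an adjusted p under 0.05 in limma (Itgal, Fermt3 and Jaml) and 0 were higher. Over all 21341 genes, 0.558% were called lower and 0.675% higher. At an unadjusted p under 0.05, 5 of the 10 were lower, against 7.33% of all genes, and 1 was higher, against 5.93%. On 6 genes (Itgal, Itgb2, Fermt3, Rassf5, Icam2 and Jaml) every MR 4-25 array read below every Neo array, against 13.1% of all genes, and on 1 gene (Rap1a) every MR 4-25 array read above, against 11.2%. The median log2 difference of the 10, MR 4-25 minus Neo, was -0.76, and that of all genes 0.01. Since the choice of the genes used this contrast, nothing is read from these counts beyond the values themselves. The calls depend on the arrays used and on the block. With the slide of each array as a block Itgal, Fermt3 and Jaml still passed, with 166 lower and 172 higher calls over all genes. With the replicate number as a block, which pairs the arrays by number, 0 of the 10 passed, with 6 lower at an unadjusted p under 0.05, against 6.55% of all genes in that fit. Leaving out Neo 1, Neo 2, Neo 3, MR 4-25 1 or MR 4-25 2 also left 0, with 5 lower at an unadjusted p under 0.05 each time, against 4.35% to 6.39% of all genes. Without MR 4-25 3 Itgal and Fermt3 passed and Jaml did not.

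Slide 1 carried replicates 1 and 2 of each line and slide 2 carried replicate 3 of each. Between 61.3% and 76.3% of probes were well above background, the lowest share on MR 4-25 3, where the 75th percentile of the signal was 521 intensity units against 844 to 988 on the other arrays. Values below are log2 signals relative to that percentile on the same array, so 0 is the 75th percentile, and they can be compared between arrays for the same probe but not between probes.

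**Figure D1:**
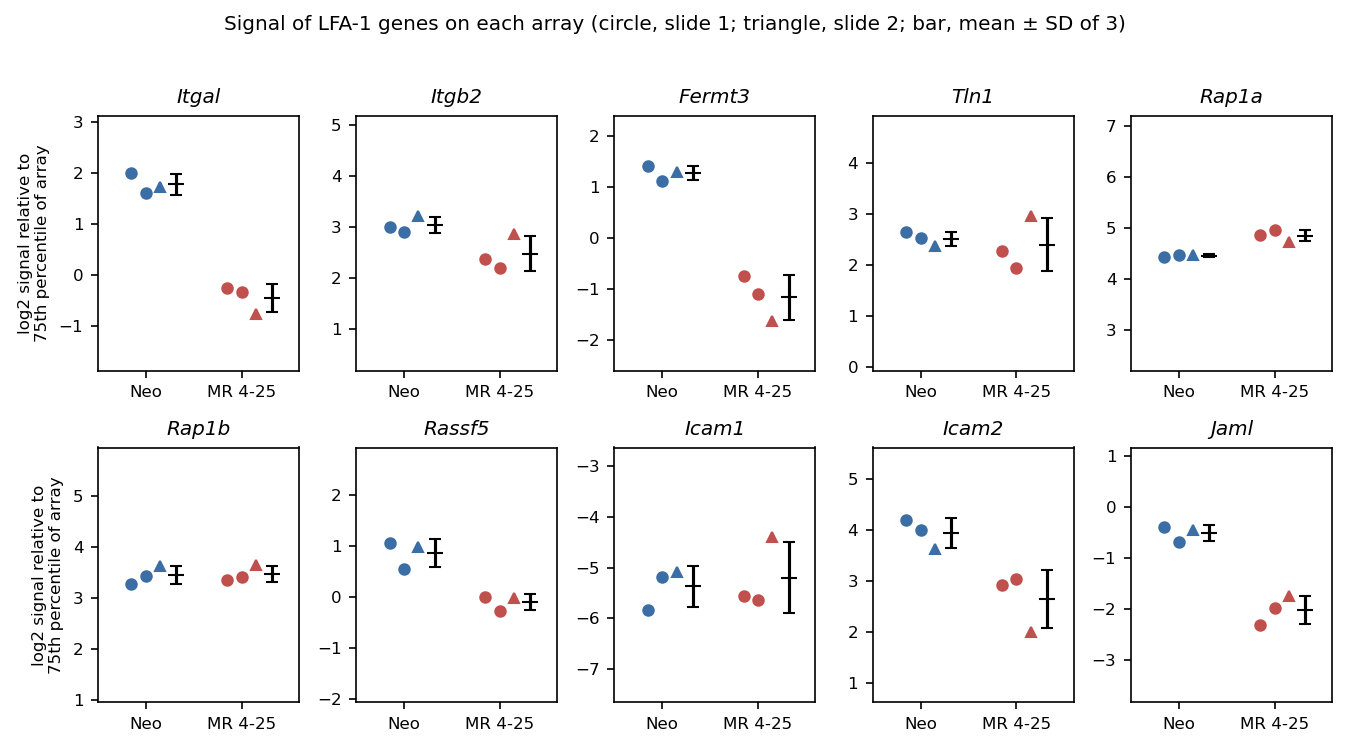
The vertical axis of each panel is the log2 signal of the gene's brightest probe relative to the 75th percentile of the array, for Neo (blue) and MR 4-25 (red), with circles for slide 1, triangles for slide 2 and bars for the mean and SD of 3 arrays. Every panel spans the same number of log2 units. The MR 4-25 arrays of Itgal lie between -0.76 and -0.26, below the Neo arrays at 1.61 to 2.00, while those of Rap1b lie among the Neo arrays.

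Itgal, the alpha chain that only LFA-1 carries, fell 4.69-fold in MR 4-25. On its brightest probe the signal was 2.00, 1.61 and 1.73 on the Neo arrays and -0.26, -0.34 and -0.76 on the MR 4-25 arrays, in replicate order. These were intensities of 3954, 2573 and 3044 units in Neo and 728, 722 and 308 in MR 4-25. The lines did not overlap, and the means were 1.78 ± 0.20 (SD, n = 3) in Neo and -0.45 ± 0.27 (SD, n = 3) in MR 4-25. The difference was -2.23 with an SE of 0.21 and a 95% interval from -2.77 to -1.70, or 3.24-fold to 6.80-fold lower. It was -2.10 within slide 1 and -2.49 within slide 2.

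The other Itgal probe had the same direction and a smaller difference. It read 1.22, 1.28 and 1.24 in Neo and -0.38, -0.21 and 0.32 in MR 4-25, again with no overlap. Its difference was -1.34 with an SE of 0.22 and a 95% interval from -1.90 to -0.78, a signal 2.53-fold lower. This probe did not pass when each of 30965 probes was tested on its own, where 0.601% of probes were called lower. The probes disagree most on MR 4-25 3, the dim array, which was the lowest MR 4-25 array on the brightest probe and the highest on the other. Without that array the differences were -2.08 and -1.55. Averaging both probes gave -1.79, and Itgal then still passed.

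Itgb2, the beta chain, which Itgal shares with the alpha chains of the other leukocyte integrins of its class, differed less. The signal was 2.98, 2.89 and 3.21 in Neo and 2.36, 2.20 and 2.85 in MR 4-25. All MR 4-25 arrays were below all Neo arrays, with 2.85 and 2.89 as the closest pair. The means were 3.03 ± 0.16 and 2.47 ± 0.34 (SD, n = 3 each). The difference of -0.56 had an SE of 0.23 and a 95% interval from -1.14 to 0.02, which takes in 0, and the gene did not pass. Its single probe read 1.47-fold lower, with differences of -0.66 within slide 1 and -0.36 within slide 2.

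Fermt3 encodes kindlin-3, the kindlin of blood cells, which binds the tail of the beta chain and is needed for integrins to become active. It fell 5.39-fold in MR 4-25. The signal was 1.41, 1.13 and 1.30 in Neo and -0.74, -1.09 and -1.62 in MR 4-25, with intensities of 2626, 1851 and 2252 units against 520, 427 and 170. The groups were far apart, with means of 1.28 ± 0.14 and -1.15 ± 0.44 (SD, n = 3 each). The difference was -2.43 with an SE of 0.26 and a 95% interval from -3.10 to -1.76, or 3.40-fold to 8.57-fold lower. Slide 1 gave -2.19 and slide 2 gave -2.91, and without MR 4-25 3, the lowest array, the difference was -2.20. The array's file carries this gene under an older clone name, and 1 probe reads it.

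Tln1 encodes talin-1, the other protein that binds the beta chain's tail and the link from there to actin. No difference was seen beyond the spread of the arrays. Its brightest probe read 2.64, 2.53 and 2.36 in Neo and 2.28, 1.94 and 2.96 in MR 4-25, so the lines overlapped, and MR 4-25 3 was above every Neo array. The difference was -0.11 with an SE of 0.30 and a 95% interval from -0.87 to 0.64. It was -0.47 within slide 1 and 0.60 within slide 2. The other Tln1 probes gave 0.18 and -0.06, and on all 3 probes MR 4-25 3 was the highest of the 6 arrays. The interval reaches from 1.83-fold lower to 1.56-fold higher, and a change within that range cannot be told from none here.

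Rap1a and Rap1b are the near-identical small GTPases that switch the integrin on. Rap1a read slightly higher in MR 4-25. Its brightest probe gave 4.44, 4.47 and 4.48 in Neo and 4.87, 4.96 and 4.74 in MR 4-25, with no overlap and an SD of only 0.03 in Neo against 0.11 in MR 4-25. The difference was 0.39 with an SE of 0.14 and a 95% interval from 0.04 to 0.75, a signal 1.31-fold higher, and it did not pass. A further probe gave 0.45 with an interval from -0.01 to 0.92, again with no overlap. With normexp background correction the brightest probe's difference was 0.15, below the median of all genes under that setting, 0.34, so its direction relative to the other genes turns there. The last Rap1a probe was not well above background on any array.

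No difference beyond the spread of the arrays was seen for Rap1b. Its brightest probe gave 3.27, 3.42 and 3.63 in Neo and 3.35, 3.41 and 3.63 in MR 4-25. The difference was 0.02 with an SE of 0.17 and a 95% interval from -0.42 to 0.47, which reaches from 1.33-fold lower to 1.38-fold higher. The other probes gave -0.16 and -0.06, and each overlapped between the lines.

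Rassf5 encodes RAPL, a partner of GTP-bound Rap1 that is known to bind the tail of the LFA-1 alpha chain. The signal was 1.06, 0.55 and 0.98 in Neo and 0.00, -0.27 and -0.02 in MR 4-25. Every MR 4-25 array was below every Neo array, with means of 0.86 ± 0.28 and -0.10 ± 0.15 (SD, n = 3 each). The difference was -0.96 with an SE of 0.20 and a 95% interval from -1.47 to -0.44, a signal 1.94-fold lower. It did not pass in the comparison as designed, and passed with an intensity trend and robust fit and with array weights. The difference was -0.94 within slide 1 and -1.0 within slide 2.

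**Figure D2:**
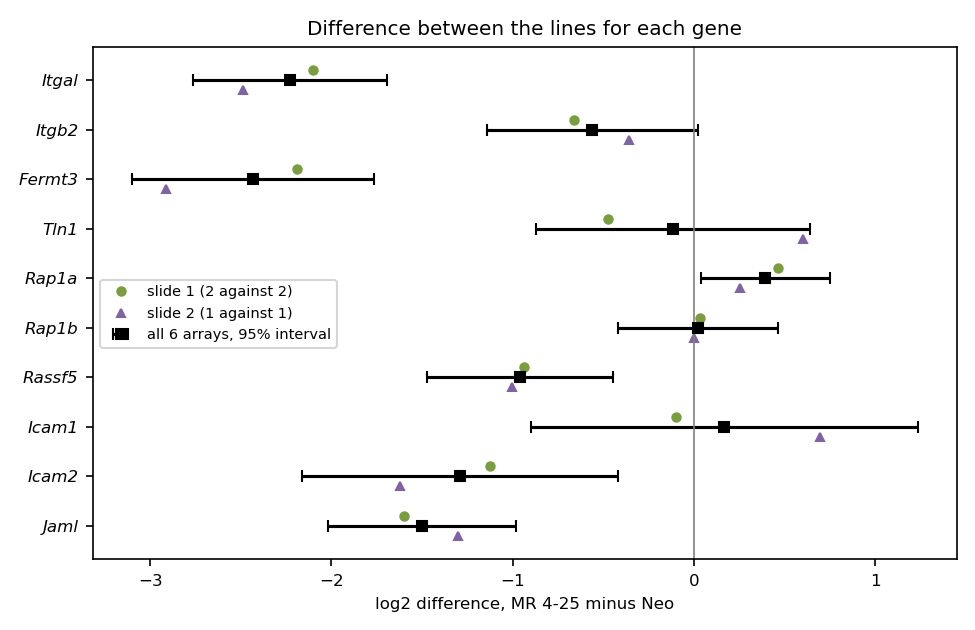
The horizontal axis is the log2 difference, MR 4-25 minus Neo, of each gene's brightest probe. Squares with bars are the fit to all 6 arrays with its 95% interval, circles the difference within slide 1 (2 arrays against 2) and triangles that within slide 2 (1 against 1). The intervals of Itgal, Fermt3, Jaml, Icam2 and Rassf5 lie below 0, that of Rap1a above it, and Tln1 and Icam1 have slides of opposite sign.

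Icam2, the ICAM that lymphocytes and endothelium carry without stimulation, was bright on every array and lower in MR 4-25. The signal was 4.21, 4.01 and 3.63 in Neo and 2.94, 3.04 and 2.01 in MR 4-25, with no overlap. The means were 3.95 ± 0.30 and 2.66 ± 0.57 (SD, n = 3 each). The difference was -1.29 with an SE of 0.35 and a 95% interval from -2.16 to -0.42, or 1.33-fold to 4.47-fold lower, and it did not pass over all genes. Slide 1 gave -1.12 and slide 2 gave -1.62, and on each slide Icam2 was lower in MR 4-25. MR 4-25 3 was the lowest array, and without it the difference was -0.96.

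Icam1, the ligand that inflammatory signals raise, was read near background. Its brightest probe has 10 spots on each array. Their mean intensity, averaged on the log2 scale, was 17.4, 23.3 and 26.9 units in Neo and 18.5, 18.2 and 24.7 in MR 4-25. On the log2 scale this was -5.83, -5.18 and -5.09 in Neo and -5.56, -5.65 and -4.40 in MR 4-25. The lines overlapped, and spots of the same array differed with an SD of 0.17 to 1.35 log2 units. The difference of 0.17 had an SE of 0.42 and a 95% interval from -0.90 to 1.23, which reaches from 1.87-fold lower to 2.35-fold higher, so a change within that range was not detectable at this signal. The second Icam1 probe was not well above background on any of 6 arrays.

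Jaml is not a ligand of LFA-1. It is an adhesion receptor of leukocytes that binds Cxadr on epithelium, and it acts beside integrins in migration across it. Jaml fell 2.83-fold in MR 4-25. The signal was -0.40, -0.69 and -0.45 in Neo and -2.31, -1.98 and -1.75 in MR 4-25, with intensities of 748, 522 and 670 units against 176, 231 and 154. The lines did not overlap, and the means were -0.52 ± 0.16 and -2.01 ± 0.28 (SD, n = 3 each). The difference was -1.50 with an SE of 0.21 and a 95% interval from -2.02 to -0.98, or 1.97-fold to 4.05-fold lower. Within slide 1 it was -1.60 and within slide 2 -1.30. The call was close to the threshold. It was lost with normexp background correction, median scaling, no filter on dim probes and the mean over probes. Slide 1 alone, the replicate block and leaving out any 1 array also lost it. It was kept in 7 of the 19 other settings, and the difference stayed between -1.63 and -1.04 in all 19. Cxadr itself was dim and gave 0.26 with an SE of 0.48 (limma, adjusted p = 0.874).

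**Figure D3:**
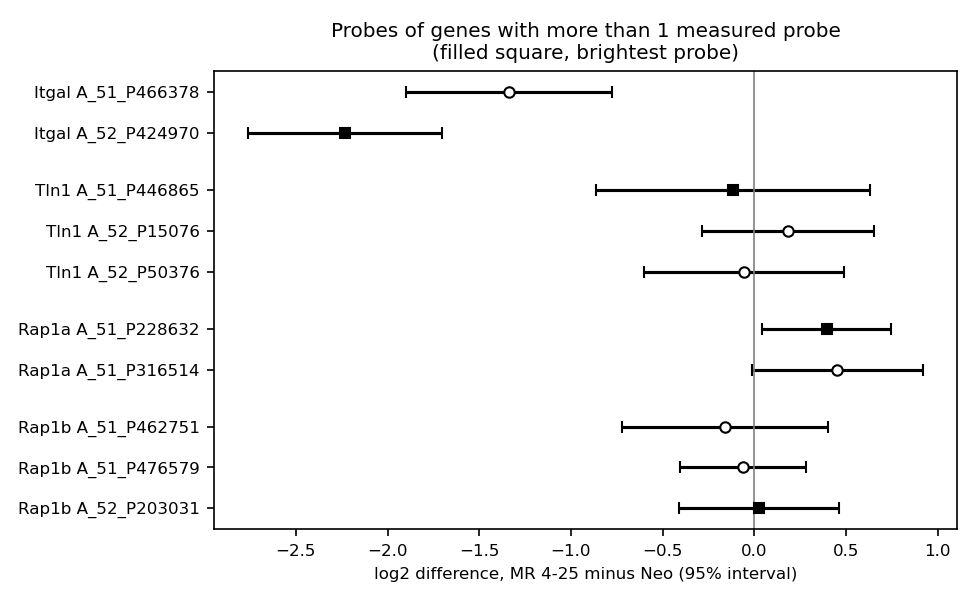
The horizontal axis is the log2 difference, MR 4-25 minus Neo, with its 95% interval, of each probe of the genes that have more than 1 measured probe, and filled squares mark the brightest probe. Both Itgal probes lie below 0, at -2.23 and -1.34, both measured Rap1a probes above it, at 0.39 and 0.45, and every interval of Tln1 and Rap1b takes in 0.

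The genes above were set beside 78 other genes of LFA-1 regulation and leukocyte adhesion, listed by function in 6 groups. Of these, 74 could be compared. In limma 1 fell (Dok2) and 0 rose, against 0.558% and 0.675% of all genes, and 73 did not pass. At an unadjusted p under 0.05, 9 of the 74 were lower and 10 higher, larger shares than the 7.33% and 5.93% of all genes. The median difference of the 74 was -0.06, near the 0.01 of all genes. Dok2, an adaptor of the Dok family that damps signalling from the T cell receptor and other kinases, read 3.74, 3.57 and 3.84 in Neo and 2.37, 1.71 and 1.93 in MR 4-25. It fell 3.28-fold, by 1.71 on the log2 scale with an SE of 0.22 (limma with Benjamini-Hochberg adjustment, adjusted p = 0.0406). The difference was -1.62 within slide 1 and -1.90 within slide 2. With slide as a block the adjusted p was 0.0545 and with the replicate number as a block 0.140. Leaving out any 1 array gave adjusted p-values of 0.0844 to 0.217, so the call needs all 6.

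Within the groups, the median difference lay between -0.24 and 0.26. Of 18 genes upstream of Rap1 and talin, 0 passed and the median difference was -0.08, from Rapgef3 (Epac1, a Rap1 activator driven by cAMP) at -1.08 (limma, adjusted p = 0.304) to Rapgef2, another exchange factor for Rap1, at 0.70 (adjusted p = 0.261). Of 11 brakes on Rap1 or integrins, Dok2 alone passed and the median was -0.10. In that group Rap1gap2, which returns Rap1 to its GDP form, had a difference of -2.52 with an SE of 0.49 (limma, adjusted p = 0.111). It passed with normexp (0.0499), normexp and quantile normalization (0.04995), a trend and robust fit (0.0381) and array weights (0.00658). It did not pass in the other settings, among them the mean over its probes, at -2.87 (0.0519). Dok1, the nearest relative of Dok2, had 0.32 (adjusted p = 0.585). Of 14 relatives of talin and kindlin and proteins of adhesion sites, 0 passed, with a median of -0.24. Fermt2, the kindlin of most other tissues, was dim and gave -1.61 with an SE of 1.11 (limma, adjusted p = 0.633), and Parvb, an actin-binding partner of integrin-linked kinase and also dim, gave 0.84 (adjusted p = 0.611).

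Of 10 other integrin chains of leukocytes that were measured, 0 passed and the median difference was -0.02. Itgb3, the beta chain of the vitronectin receptor, was higher on every MR 4-25 array on its brightest probe, at 0.63 ± 0.04 against -0.60 ± 0.22 (SD, n = 3 each). That probe's difference of 1.22 did not pass (limma, adjusted p = 0.0509). The slide block gave an adjusted p of 0.0443, which passes, and the replicate block 0.169, which does not. The mean over the 2 Itgb3 probes was a difference of 0.33 (limma, adjusted p = 0.694), so the other probe's difference had the opposite sign. Itga5, an alpha chain of the fibronectin receptor, was dim, well above background on 1 of 3 MR 4-25 arrays, and gave -0.89 (adjusted p = 0.721). Of 13 other ligands and immunoglobulin adhesion molecules 0 passed in limma, with a median of 0.26. They ran from the dim Vcam1 at -0.59 (adjusted p = 0.726) to Icam4 at 1.43 (adjusted p = 0.195). Icam4 was also dim, and its difference was 1.07 within slide 1 and 2.14 within slide 2. Of 8 homing receptors that act with LFA-1 on vessel walls 0 passed, with a median of -0.24, from Ccr9, a chemokine receptor of gut homing, at -0.93 (adjusted p = 0.345) to Ccr7, that of lymph node homing, at 1.28 (adjusted p = 0.111). No test of one group against another was made.

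**Figure D4:**
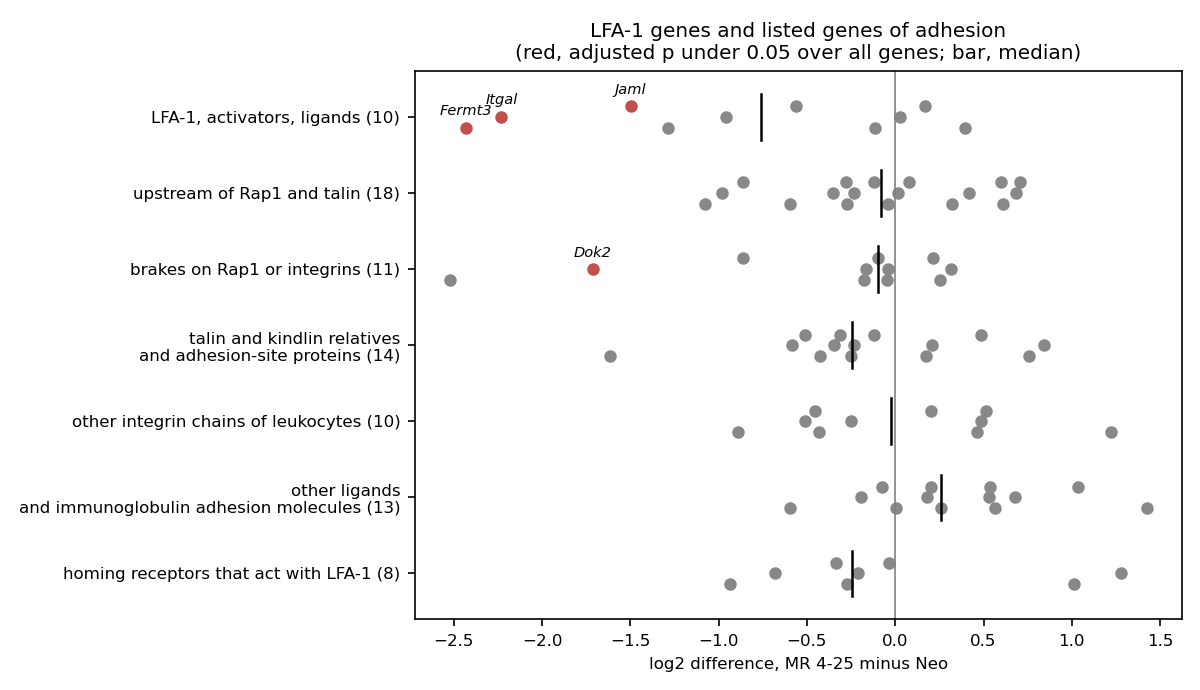
The horizontal axis is the log2 difference, MR 4-25 minus Neo, and each point is a gene, in rows for the 10 LFA-1 genes and the 6 listed groups, with the number of genes compared in brackets, a bar at the median and red for an adjusted p under 0.05 over all genes. Red points are Fermt3, Itgal and Jaml in the top row, which was chosen from these data, and Dok2 among the brakes.

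Patterns like that of Itgal across the 6 arrays were sought among 12624 genes with a current gene symbol, well above background on all 6. The closest were those of Ehhadh (Pearson r = 0.999), Ccm2l (0.999) and Col27a1 (0.998), and 396 genes had an r over 0.95. For Jaml they were Polr3b (0.997), Fgfr3 (0.997) and Utp20 (0.997), with 213 genes over 0.95. The arrays fall into the 2 lines, so such an r follows from any steady difference between them, and it is given as a description with no test.

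The cells carried the RNA of T cells on every array. All 10 listed T cell markers were well above background on all 6 arrays. The log2 of their summed linear signals was 7.84 to 8.08 in Neo and 7.80 to 7.95 in MR 4-25. Most of that signal came from Thy1, Lck and Cd3d. Each such sum is over different probes, so it can be compared between arrays but not between lists. Of the 10, Cd247, a signalling chain bound to the T cell receptor, was called lower, with a difference of -4.06 (limma, adjusted p = 0.0272). That was 16.7-fold lower, and the sum could not show it because Cd247 is a small part of it. The value is that of the brightest of 3 measured Cd247 probes, and the others are not given here. Its MR 4-25 signal was low, at -4.90 ± 0.84 (SD, n = 3). The difference was -4.63 within slide 1 and -2.91 within slide 2, and the call was not followed over the other settings. Of 6 myeloid markers 5 were above background on all arrays, with a log2 of the sum of 0.19 to 0.38 in Neo and 0.68 to 0.87 in MR 4-25. That sum was higher on every MR 4-25 array. Within it Lyz2 had a difference of 1.06 and Cd68 of 0.75, while Itgam had -0.43 and Cd14 -1.03, and none of the 6 passed. The part of the myeloid sum in the LFA-1 genes' differences was not tested. Of 5 B cell markers 2 were above background on all arrays, with sums on the same scale of -0.61 to -0.35 and -0.52 to 0.05, and of 4 NK cell markers 0 were, with sums of -3.83 to -2.14 and -4.39 to -2.15. Fibroblast markers, 2 of 4 above background on all arrays, summed to -1.25 to -0.10 in Neo and -0.77 to 0.03 in MR 4-25. In RNA from bulk cultures, fewer cells that carry a transcript and less of it per cell cannot be told apart.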

How the data were processed

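The deposited values were Cy3 intensity values, which per the file headers the authors background-corrected in Agilent Feature Extraction (9.5.3.1, or 9.5 in the submitters' processing notes). A deposited table of values was identical to them. Of the spots, 43379 an array were for genes. The 1639 control spots were left out, outlier spots masked and spots of a probe averaged on the log2 scale, which left 41174 probes, of which 34 had every spot masked on an array and were dropped. Arrays were scaled by subtracting, on the log2 scale, the 75th percentile of their gene spots. Probes that 3 or more of the 6 arrays read well above background were kept (30965), and the brightest stood for each gene (21341). Gene names came from the file and, through accessions or synonyms, from a RefSeq table. MR 4-25 was compared with Neo by limma 3.58.1 (lmFit and eBayes, R 4.3.3), with Benjamini-Hochberg adjustment over all genes and a threshold of 0.05. The 19 alternatives varied background correction (normexp, offset 50), scaling, the filter, the handling of probes, the variance model, the blocks (slide or replicate number) and the arrays used. Of the script, only the fit was tested on simulated data, with independent noise on each array and no deviation shared by the arrays of a slide.

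The genes, lists and tests were chosen with earlier results of these data known. Named genes were the 10 chosen genes with every probe, listed genes that passed, the listed gene of largest positive and of largest negative difference in each group, and the 3 genes most correlated with Itgal and with Jaml. Cxadr and the cell type markers were named after their values were seen. Same-numbered arrays of the lines deviated from their line's means together (r = 0.29, 0.21 and 0.56 across genes, which are not independent replicates), so the numbers were treated as pairs in an alternative with a replicate block. Crossed arrays of slide 1 correlated more (0.41 and 0.38) than its same-numbered arrays (0.29 and 0.21). Slide 2 held 1 array of each line, so there number and slide coincide. These values show no pairing by number beyond that by slide. The number of arrays limits the precision of every value.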

Additional observations from a re-analysis of the deposited data

How the results depend on the processing

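The difference of each of the 10 genes was recomputed under 19 other settings. Of 190 values 0 reversed a call, 180 moved by less than the spread between replicates and 10 moved by more. Only values of Itgal, Fermt3 and Jaml, called as designed, could reverse a call. The deposited table, the changes of filter, the trend and the blocks left every difference as it was. The mean over probes did so for genes with 1 measured probe. Those unchanged values count among the 180 and say nothing about stability. Tln1, Icam1 and Rap1b, none of them called, changed sign in 3, 4 and 4 settings. Itgal and Fermt3 were called in 12 of the 19 settings, Jaml in 7, Rassf5 in 2 and Itgb2, Icam2 and Rap1a in 1. Of the 10 genes, 3 were called lower and 0 higher as designed. Array weights called 6 lower and 1 higher (Rap1a). Slide 1 alone called 0 lower, with 6 lower at an unadjusted p under 0.05 in limma, against 8.93% of all genes. The replicate block also called 0 lower, with 6 lower unadjusted, against 6.55%. In that block the whole table held 0 lower and 1 higher call. Leaving out 1 array gave 0 to 2 lower. Of the 74 listed genes, 1 was called lower and 0 higher as designed. The count lower was 0 with quantile normalization, median scaling, no filter, slide as a block, slide 1 alone, the replicate block and each array left out (0 to 0). With normexp it was 1, Rap1gap2 (adjusted p = 0.0499), while Dok2 did not pass there (0.115). It was 2 with the filter on all 6 arrays, 3 with normexp and quantile, 4 with an intensity trend and robust fit and 8 with array weights. The count higher was 1, Itgb3, with quantile normalization, the trend and the slide block, 2 with the filter on all 6 arrays and 9 with array weights. The median difference of all genes shifted to 0.34 with normexp, 0.10 with no filter and -0.12 without Neo 3. Over all genes the calls were 119 lower and 144 higher as designed, 25 and 53 with normexp, 231 and 278 with normexp and quantile, 235 and 289 with the filter on all 6 arrays, 351 and 367 with the trend, 1076 and 942 with array weights, 63 and 61 on slide 1 alone, and from 0 and 0 (without Neo 1, with 1687 genes at an unadjusted p under 0.05, or without Neo 2, with 2014) to 131 and 92 (without MR 4-25 3). The cause of these changes was not tested. Signal near background limits Icam1, Cxadr, Fermt2, Parvb, Itga5, Vcam1 and Icam4.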
